A study of Mus musculus with 6 samples.

Results

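The IL-6 family cytokines, their receptors and the JAK-STAT3 proteins below them were examined in adult retinas of mice lacking Onecut2 (OC2-KO) and of wildtype littermates (OC2-WT). The members were 10 genes chosen by symbol. The ligands were Lif, Clcf1, Il6 and Cntf, the receptors Il6st, Osmr and Lifr, and the kinases and transcription factor Jak1, Jak2 and Stat3. All probe sets that the platform annotation assigns to 1 of these symbols alone were taken, which gave 25 of 45037 probe sets. They cover 9 of the 10 genes, out of 18193 genes with a probe set of their own, because the probe set that names Cntf also names Zfp91 and Gm44505.

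Each genotype was measured on 3 Affymetrix arrays of total RNA from whole adult retina, and the question is which RNAs change in the adult tissue once this horizontal cell transcription factor is gone. OC2-KO mice carry the null allele in every cell, and the study's text says that many of them die soon after birth, so the arrays show survivors. The labels give the stage as adult without an age in days, and no source used here names a strain. All values below are log2 intensities, in which a difference of 1 is a doubling, and differences are OC2-KO minus OC2-WT. In whole tissue, more cells of a type and more RNA per cell cannot be told apart.

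Cytokines of the IL-6 family signal through receptor complexes that share the chain gp130, encoded by Il6st. LIF and CNTF pair it with the LIF receptor, and oncostatin M pairs it with its own receptor chain from Osmr. The bound complex activates the kinases JAK1 and JAK2, which phosphorylate STAT3, and STAT3 then switches on target genes such as its own inhibitor Socs3. In the injured retina this pathway is known for its activity in Müller glia, where LIF is linked to photoreceptor survival.

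Same-numbered arrays of both genotypes deviated together, and differences within these pairs are given. The main test, with its SEs, intervals and p-values, did not use the pairing. Only the fits named as having a replicate block did. Pair 3 stood apart in RNA quality, and its sample titles are worded differently from those of pairs 1 and 2. For Actb, the 3' control probe set exceeded the 5' one by log2 values of 2.95 and 3.39 on its arrays and 0.71 to 1.41 on the other 4, and that of Gapdh was 1.04 and 1.29 against -0.48 to -0.29. By Xist and the Y-linked Eif2s3y, the sexes also differed within pair 3, female for OC2-WT and male for OC2-KO, while pairs 1 and 2 were matched. The rod genes Sag, Pde6b, Gnat1 and Nrl lay at mean log2 intensities between 15.02 and 15.83 in both genotypes. Single arrays varied more, Gnat1 from 14.70 to 17.02, and each rod gene was highest in pair 3. The 5 horizontal cell markers were all lower in OC2-KO on average, 4 of them in all 3 pairs. The 3 Onecut2 probe sets were higher in OC2-KO, by 2.27 to 2.84, and lie in the 3' part of the gene per the study, so they do not check the deletion.

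Among probe sets bright enough to test, those of Osmr, Il6st and Stat3 read higher in OC2-KO in every pair, by means of 0.22 to 0.91. None passed adjustment, with or without the replicate block. The Jak2 probe set 1421065_at was also higher in every pair. Jak1 differed little, and the ligands were too dim to test. Of the 25 member probe sets, 12 passed the expression filter, a mean log2 intensity above 7 in either genotype. These 12 belong to 6 genes, namely all 3 receptors, both kinases and Stat3. The mean of OC2-KO exceeded that of OC2-WT in 10 of the 12, where 48.1% of all 21176 probe sets tested did so, and the median difference of the 12 was 0.25 against -0.0084 over all. A Lifr probe set among the 10 passed the filter through the OC2-KO mean alone, and with the filter at 8 it was 9 of 11, with a median of 0.22. At 8, Osmr 1418674_at and Jak2 1421065_at in turn passed through the OC2-KO mean alone, so that filter does not remove this selection. OC2-KO was higher in all 3 pairs for 6 of the 12, against 10.3% of all probe sets, and lower in all 3 pairs for 0, against 12.4%. The genotypes did not overlap in 3 of the 12, all higher in OC2-KO, against 1.72% of all probe sets higher and 1.56% lower, and in 2 after quantile normalization or median centring. Several of these probe sets measure the same gene, so the 12 are not independent of each other.

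With limma, 0 had a p under 0.05 before adjustment (all probe sets, 0.987%, and 0.661% in the higher direction), and the adjusted p was 1.00 for each of the 12. With the replicate number as a block, 4 had an unadjusted p under 0.05, all with a higher mean in OC2-KO, against 4.19% of all probe sets in either direction, and 0 passed adjustment (limma, adjusted p = 0.999 for each). In the higher direction alone the block gave 2.09% of all probe sets. The 4 were the Osmr probe set, both Stat3 probe sets and 1 of Il6st. In the same arrays 0 of 21176 probe sets passed adjustment with limma, with or without the block.

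**Figure D1:**
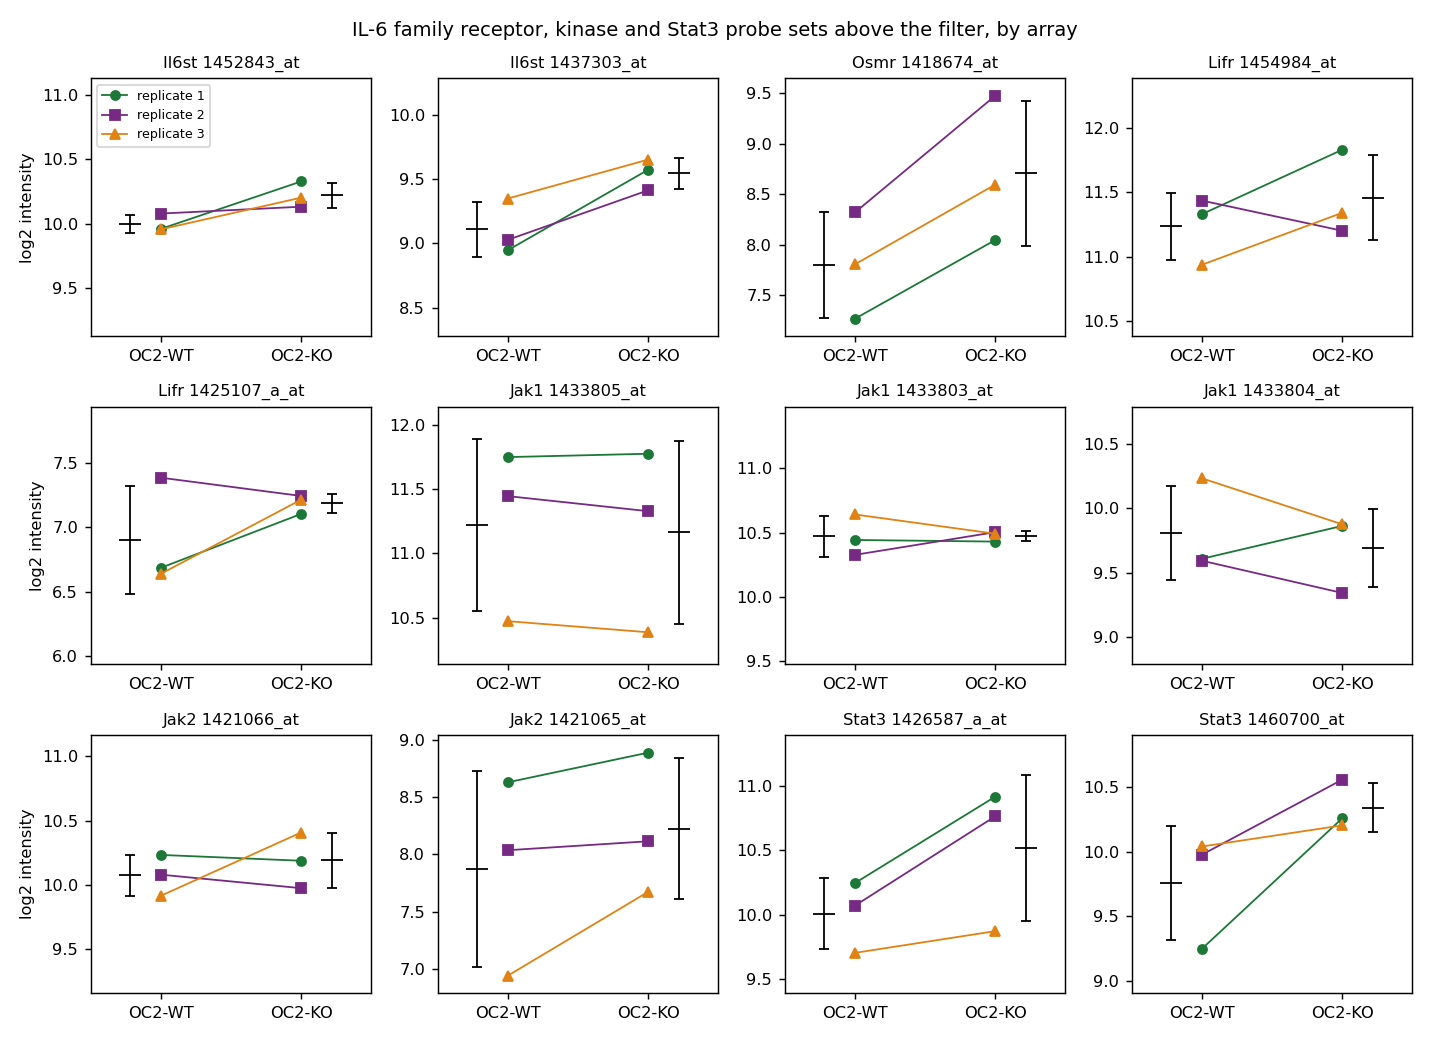
Log2 intensity (vertical axis, its own range in each panel) of the 12 member probe sets that passed the filter, by genotype (horizontal axis), with a point for each array, coloured lines joining arrays of the same replicate number, and each genotype mean drawn in black with its SD over 3 arrays. The lines of Osmr 1418674_at run upward in parallel, by 0.78, 1.15 and 0.79 in pairs 1, 2 and 3, while those of Jak1 1433803_at stay within 0.18 of level.

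None of the ligands reached the filter. Lif, the leukemia inhibitory factor that injured photoreceptors induce in Müller glia, stood on 1421207_at at 4.55, 5.27 and 3.25 in OC2-WT replicates 1, 2 and 3, and the OC2-KO replicates read 4.85, 6.04 and 4.59. OC2-KO was the higher array of all 3 pairs, by 0.30, 0.77 and 1.34, but the genotypes overlapped and each mean stayed below 7. The other Lif probe set, 1450160_at, was dimmer still, at means of 3.25 and 3.43. Il6, the founding cytokine of the family, ranged from -0.48 to 2.59 on its only probe set, the lowest mean of any member probe set, and its values had no order by genotype.

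Clcf1, a cytokine that acts through the CNTF receptor, had 3 probe sets with means of 5.28 to 5.87 in OC2-WT and 4.81 to 5.62 in OC2-KO. Each differed downward on average, by -0.52 to -0.096, and overlapped between genotypes. On 1437271_at OC2-KO was lower in all 3 pairs, and on the other 2 the pairs disagreed. At this brightness the arrays do not show whether the ligands differ. The probe set shared by Cntf, the ciliary neurotrophic factor gene, with Zfp91 and Gm44505 stood at 8.40, 8.45 and 8.61 in the OC2-WT arrays, and the OC2-KO arrays read 8.98, 8.87 and 8.17. It was higher in pairs 1 and 2 and lower in pair 3, and it gives no value for Cntf.

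Osmr, the oncostatin M receptor chain, showed the largest difference of the 12. Probe set 1418674_at stood at 7.27, 8.32 and 7.81 in the OC2-WT arrays, and the OC2-KO arrays read 8.05, 9.47 and 8.59. The genotypes overlapped because the pairs differ in level, but OC2-KO was the higher array in each. The difference was 0.91 ± 0.43 (SE), or 1.87-fold (limma, adjusted p = 1.00), with a 95% interval from -0.099 to 1.91. With the replicate block the same difference had an SE of 0.17 (limma, adjusted p = 0.999). The other 2 Osmr probe sets were below the filter, and their pair differences ran from -5.41 to 2.58 without a common direction.

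Il6st encodes gp130, the signal-transducing chain that all these cytokines use. Probe set 1437303_at stood at 8.95, 9.03 and 9.35 in the OC2-WT arrays, and the OC2-KO arrays read 9.57, 9.41 and 9.65. Probe set 1452843_at stood at 9.96, 10.08 and 9.96 in the OC2-WT arrays, and the OC2-KO arrays read 10.33, 10.13 and 10.20. On both, the lowest OC2-KO array lay above the highest OC2-WT array. The differences were 0.44 ± 0.21 (SE) for the first (limma, adjusted p = 1.00) and 0.22 ± 0.19 (SE) for the second (limma, adjusted p = 1.00), which are 1.35-fold and 1.17-fold. The gap between the genotypes was narrow in each case, and the 95% intervals ran from -0.067 to 0.94 and from -0.23 to 0.68. Il6st is also on the study's list of genes higher in these same arrays, so its direction here is not independent evidence.

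Lifr, the ligand-binding chain for LIF, did not separate the genotypes. Probe set 1454984_at stood at 11.33, 11.44 and 10.94 in the OC2-WT arrays, and the OC2-KO arrays read 11.83, 11.20 and 11.34, a difference of 0.22 ± 0.26 (SE) with a 95% interval from -0.39 to 0.84. Probe set 1425107_a_at differed by 0.28 ± 0.26 (SE), from 6.90 ± 0.42 to 7.19 ± 0.074 (SD, n = 3), and passed the filter through the OC2-KO mean alone. Both were higher in pairs 1 and 3 and lower in pair 2. The dim 1450207_at went the other way, with OC2-KO lower in all 3 pairs by 0.29 to 2.55, so the probe sets of Lifr did not share a direction.

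Stat3, the transcription factor on which the pathway converges, was higher in OC2-KO in all 3 pairs on both of its probe sets that passed the filter. Probe set 1460700_at stood at 9.25, 9.98 and 10.04 in the OC2-WT arrays, and the OC2-KO arrays read 10.26, 10.56 and 10.21, without overlap. Probe set 1426587_a_at stood at 10.24, 10.07 and 9.70 in the OC2-WT arrays, and the OC2-KO arrays read 10.92, 10.76 and 9.87, where OC2-KO replicate 3 fell inside the OC2-WT range. The differences were 0.59 ± 0.28 (SE), or 1.50-fold (limma, adjusted p = 1.00), and 0.51 ± 0.33 (SE), or 1.42-fold (limma, adjusted p = 1.00). In both probe sets pair 3 showed the smallest difference, 0.16 and 0.17, against 0.58 to 1.01 in pairs 1 and 2. The 2 dim probe sets of Stat3, 1424272_at and 1459961_a_at, were higher in pairs 1 and 2 and lower in pair 3.

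Over the single arrays and pairs left out in turn, the difference of Osmr lay between 0.52 and 1.24, that of Stat3 between 0.33 and 0.80 on 1460700_at and between 0.31 and 0.83 on 1426587_a_at, and that of Il6st between 0.34 and 0.56 on 1437303_at. No array left out turned any of these 4 below 0. With all 3 pair differences above 0, leaving out a pair could not do so. Without overlap of the genotypes, leaving out an array could not do so for Il6st 1437303_at and Stat3 1460700_at.

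**Figure D2:**
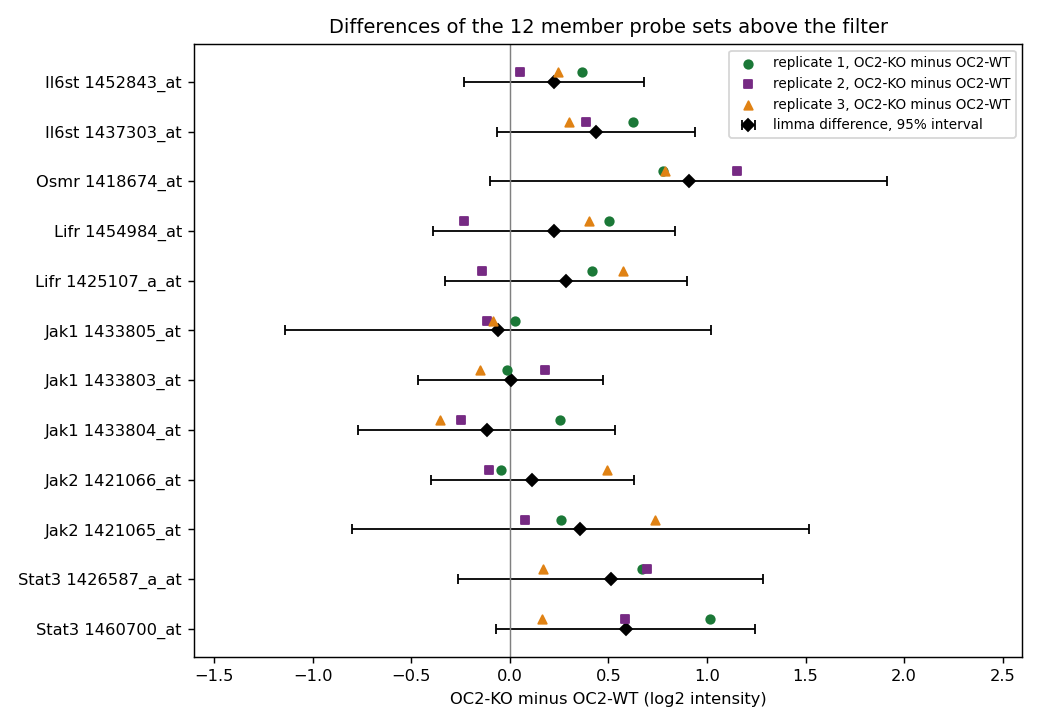
Difference in log2 intensity, OC2-KO minus OC2-WT (horizontal axis), of the 12 member probe sets above the filter (vertical axis), with black diamonds and bars for the limma difference and its 95% interval and coloured points for the difference within each pair. The intervals come from the fit without the replicate block. All 12 intervals include 0, and for both Il6st probe sets, Osmr, both Stat3 probe sets and Jak2 1421065_at all 3 points lie above 0.

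The kinases differed less than Osmr and Stat3. Jak1, which every receptor of the family uses, was measured by 3 bright probe sets that differed by -0.059 ± 0.46, 0.0048 ± 0.20 and -0.12 ± 0.28 (SE). The narrowest of their 95% intervals, that of 1433803_at, ran from -0.46 to 0.47. All 3 overlapped between genotypes, and none had all 3 pairs in 1 direction. Jak2 differed by 0.11 ± 0.22 (SE) on 1421066_at, with pairs 1 and 2 below 0 and pair 3 above, and by 0.36 ± 0.49 (SE) on 1421065_at, with all 3 pairs above 0.

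Some probe sets were low in pair 3 while others of the same gene were not. Jak1 1433805_at stood at 10.47 and 10.39 in pair 3 and between 11.33 and 11.77 elsewhere, while Jak1 1433803_at held between 10.33 and 10.64 on all 6 arrays. Jak2 1421065_at stood at 6.94 and 7.67 in pair 3 against 8.04 to 8.89, and Il6st 1460295_s_at at 3.09 and 4.07 against 7.08 to 7.55. The last was kept out of the test by these 2 arrays. The larger 3' to 5' differences of Actb and Gapdh lie in the same pair, and their part in these values was not tested.

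**Figure D3:**
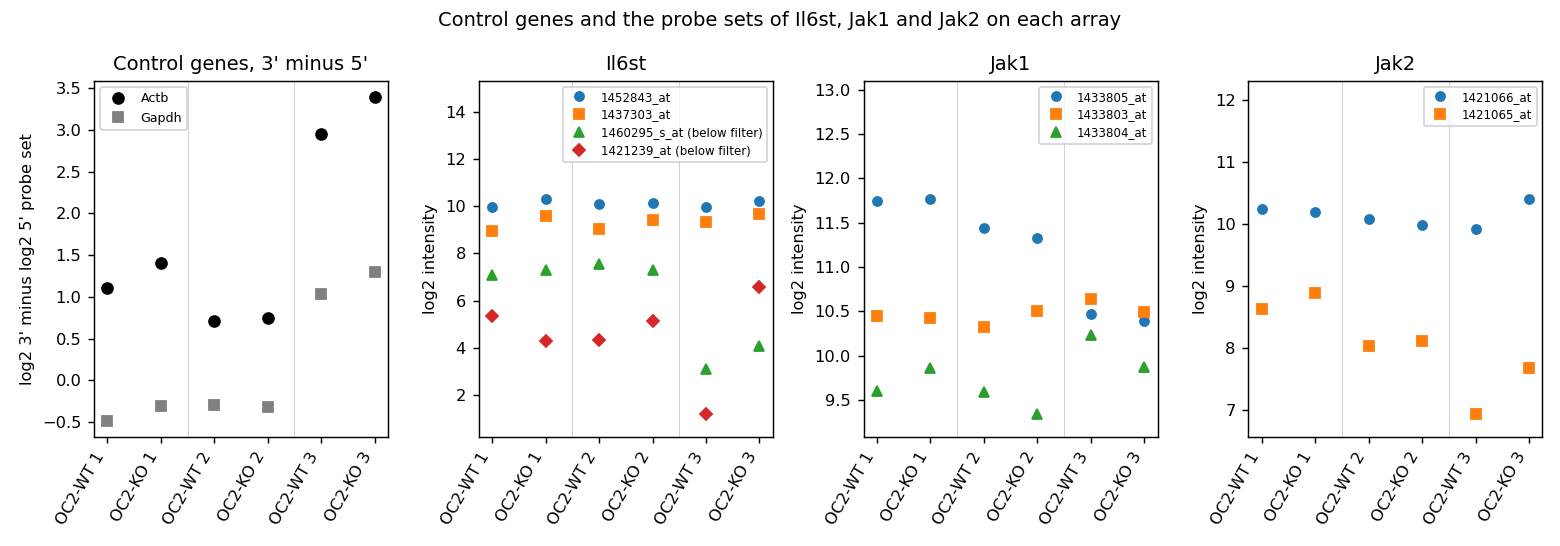
Left panel, log2 difference between the 3' and 5' control probe sets of Actb and Gapdh (vertical axis) on each array (horizontal axis), and next to it the log2 intensity of each probe set of Il6st, Jak1 and Jak2, with points for arrays and grey lines between pairs. The Actb difference of pair 3 (2.95 and 3.39) stands above that of the other arrays, and Il6st 1460295_s_at, Jak1 1433805_at and Jak2 1421065_at are lowest in pair 3.

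The rest of the pathway was read from 63 genes in 5 lists, of which 58 had a probe set of their own and 38 passed the filter, each through its brightest probe set. Osmr and Stat3 are among them through the list of STAT3 targets. The lists were chosen with earlier results of these data known, so their counts are not independent of these arrays. At an unadjusted p under 0.05 (limma), 7 were higher and 0 lower in OC2-KO, where 0.732% and 0.253% of all 11065 genes were, and 0 passed adjustment, but Edn2 and Cebpd did where the block was joined with an intensity trend. With the replicate block 12 were higher, against 2.15% of all genes (3.53% in either direction). Among these 12, Socs3, Ptpn6 and Lcn2 passed the filter through the OC2-KO mean alone. The genotypes did not overlap in 8, all higher (all genes, 1.95% higher and 1.83% lower). The 7 and the 8 all belong to the list of STAT3 targets, Socs3 being also an inhibitor.

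Other ligands and receptors gave little. Of 8 further ligands 2 passed the filter, Ebi3, a subunit of IL-27 and IL-35, and Ctf1, which encodes cardiotrophin 1, with differences of 0.24 and 0.044. Osm, the ligand of OSMR, was below the filter and ranged from 0.71 to 6.75 over the arrays. Cntfr, the CNTF receptor, was the only one of 5 further receptors to pass, at a difference of 0.21 ± 0.27 (SE). Il6ra, the IL-6 receptor chain, was below the filter on both probe sets. One, 1452416_at, stood at 5.12, 5.08 and 4.52 in the OC2-WT arrays, and the OC2-KO arrays read 6.08, 5.79 and 6.23, and the other, 1422270_a_at, differed by -0.70, so they point in opposite directions.

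Among 8 other JAK and STAT genes, 4 passed the filter and 0 had a p under 0.05 in either direction (limma, unadjusted). Stat5a and Stat5b, which serve growth hormone and other cytokines, differed by -0.33 ± 0.43 and -0.15 ± 0.25 (SE). Stat6, the IL-4 factor, differed by 0.12 ± 0.23 (SE) and the kinase gene Tyk2 by -0.052 ± 0.36 (SE). Each of the 4 overlapped between genotypes.

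Of 13 inhibitors 11 passed the filter, and 1, Socs3, had a p under 0.05. Socs3, the feedback inhibitor that binds gp130 and the JAKs, stood on its brightest probe set 1455899_x_at at 7.43, 5.89 and 7.02 in the OC2-WT arrays, and the OC2-KO arrays read 8.11, 7.72 and 8.07. The lowest OC2-KO array lay above the highest OC2-WT array, and the difference was 1.19 ± 0.40 (SE), 2.28-fold (limma, adjusted p = 1.00). It passed the filter through the OC2-KO mean alone, and the difference was 0.74 without OC2-WT replicate 2, the lowest array. The dimmer Socs3 probe sets 1456212_x_at and 1416576_at differed by 1.20 ± 0.39 and 2.78 ± 0.63 (SE), both higher without overlap. Both also passed the filter through the OC2-KO mean alone. The other 10 inhibitors differed by -0.0041 to 0.73 on their brightest probe sets, all overlapping. The highest of them was Ptpn6, the phosphatase SHP-1, at 0.73 ± 0.55 (SE), with OC2-KO at 7.58 and 7.78 in pairs 1 and 3 but 5.76 in pair 2. Ptpn6 too passed the filter through the OC2-KO mean alone. Pias3, which binds STAT3, differed by 0.26 and Cish by 0.20, and a dimmer probe set of Pias3 differed by -0.53. Ptpn2, a phosphatase that acts on JAKs, also split by probe set. Its brightest differed by 0.18, while the dim 1425198_at differed by -1.04 ± 0.28 (SE), lower without overlap (limma, unadjusted p under 0.05, adjusted p = 1.00), and 1425197_at by -0.74 ± 0.38 (SE), lower in all 3 pairs.

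The list of STAT3 targets holds 30 genes and was chosen with earlier results of these data known. No source used here establishes its genes as targets, and STAT3 activity was not measured. Of the 30, 28 are not members, and 19 of these passed the filter. The mean was higher in OC2-KO for 16 of the 19 (all genes, 48.8%), with a median difference of 0.69, against -0.0048 over all genes. Of the 19, 7 had a p under 0.05, all higher. Socs3 and Lcn2, a secreted iron carrier protein, entered the 19 through the OC2-KO mean alone, and with the filter at 8 the 7 became 6. At 8, Edn2, Cebpd, Cebpb, Gfap and Cd44 in turn passed through the OC2-KO mean alone, so that filter does not remove this selection. The peptide gene Edn2 and the transcription factor gene Cebpd led, by 3.13 ± 0.29 and 2.63 ± 0.43 (SE). The study names both among genes linked to stress or injury and does not call them STAT3 targets. A2m, a protease inhibitor of the acute phase, stood at 7.55, 8.40 and 9.07 in the OC2-WT arrays, and the OC2-KO arrays read 9.56, 10.44 and 9.44, a difference of 1.47 ± 0.45 (SE) (limma, adjusted p = 1.00). Its pair differences were 2.01, 2.04 and 0.38, again smallest in pair 3.

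Edn2, Cebpd, Socs3, Gfap, Cebpb and Cd44 are on the study's list of genes higher in these same arrays, so their count is not independent evidence. Without these 6, 13 targets remained above the filter, with a median difference of 0.23 and 1 gene, A2m, at p under 0.05. Junb, an immediate early factor, was among the 13 and was higher in all 3 pairs, at 0.75 ± 0.34 (SE). Among those near 0 were Vim, the intermediate filament of Müller glia, at -0.085 ± 0.42 (SE), and Ccnd1, the cyclin D1 gene, at 0.056 ± 0.23 (SE). Fgf2, Timp1, Ccl2, Icam1 and Myc did not pass the filter.

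**Figure D4:**
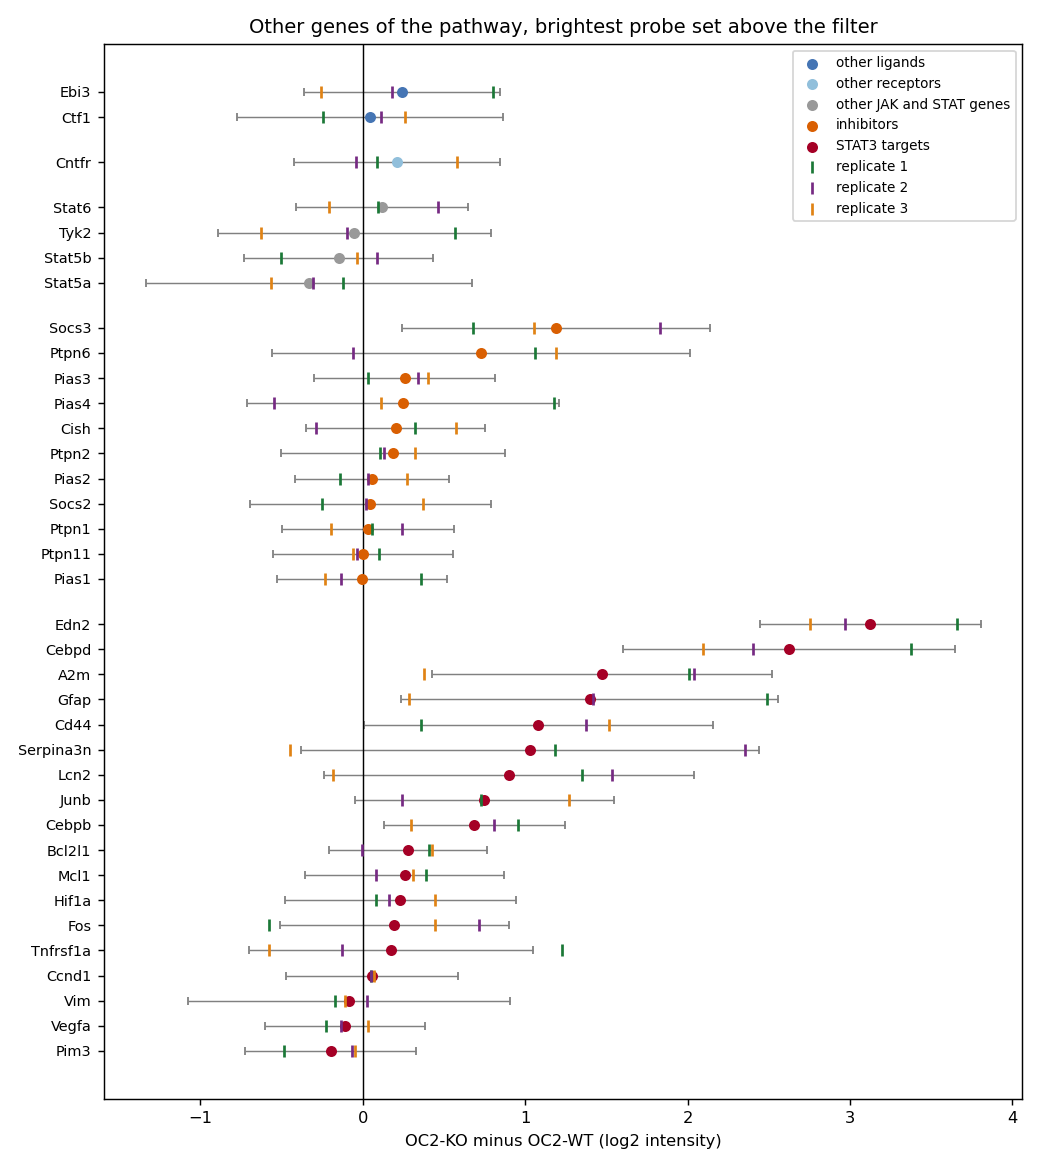
Difference in log2 intensity, OC2-KO minus OC2-WT (horizontal axis), of the pathway genes above the filter that are not members (vertical axis, grouped by list), with filled points for the limma difference, grey bars for its 95% interval and coloured ticks for the difference within each pair. The intervals come from the fit without the replicate block. Edn2 (3.13) and Cebpd (2.63) lie far to the right, followed by A2m (1.47), while the other JAK and STAT genes lie between -0.33 and 0.12.

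To set the sequences beside these values, promoters of 300 bases (RefSeq, GRCm38.p6, 250 before to 50 after the annotated start) were searched for TTCNNNGAA, the motif that STAT3 dimers bind, and for a wider form with 4 bases between TTC and GAA. Both read the same on either strand. TTCNNNGAA was found in 0 of 10 promoters of 9 members with an entry (all 32851 promoters, 8.30%), and the wider form in 1 of the 10, that of Cntf (all promoters, 6.95%). Among the STAT3 targets, 4 of 26 promoters held the first form, those of Socs3, Gfap, Icam1 and Tnfrsf1a, and 5 of 26 the wider. Below are the promoters of Osmr and Stat3, 2 members with higher means in every pair and no match, and those of Socs3 and Gfap, 2 targets with one. Capitals mark the matches, and a match is no evidence of binding.
Osmr, chr15:6874264-6874563, minus strand: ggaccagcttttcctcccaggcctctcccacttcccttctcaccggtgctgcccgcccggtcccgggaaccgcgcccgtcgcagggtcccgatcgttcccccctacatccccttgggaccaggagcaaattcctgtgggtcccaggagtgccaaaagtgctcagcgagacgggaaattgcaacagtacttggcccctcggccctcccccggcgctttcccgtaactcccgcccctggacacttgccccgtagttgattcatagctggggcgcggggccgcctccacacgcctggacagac
Stat3, chr11:100939491-100939790, minus strand: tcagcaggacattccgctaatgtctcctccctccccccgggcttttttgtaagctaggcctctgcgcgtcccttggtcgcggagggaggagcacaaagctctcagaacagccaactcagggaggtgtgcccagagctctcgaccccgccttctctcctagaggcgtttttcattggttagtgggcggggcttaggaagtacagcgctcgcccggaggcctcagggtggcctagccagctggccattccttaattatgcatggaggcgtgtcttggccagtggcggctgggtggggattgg
Socs3, chr11:117969317-117969616, minus strand: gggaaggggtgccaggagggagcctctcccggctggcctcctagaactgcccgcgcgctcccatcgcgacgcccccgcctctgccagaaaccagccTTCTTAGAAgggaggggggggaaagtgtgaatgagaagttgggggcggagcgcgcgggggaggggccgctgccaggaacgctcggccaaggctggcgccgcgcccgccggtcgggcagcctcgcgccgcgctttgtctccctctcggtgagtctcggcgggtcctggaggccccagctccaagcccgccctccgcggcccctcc
Gfap, chr11:102897151-102897450, minus strand: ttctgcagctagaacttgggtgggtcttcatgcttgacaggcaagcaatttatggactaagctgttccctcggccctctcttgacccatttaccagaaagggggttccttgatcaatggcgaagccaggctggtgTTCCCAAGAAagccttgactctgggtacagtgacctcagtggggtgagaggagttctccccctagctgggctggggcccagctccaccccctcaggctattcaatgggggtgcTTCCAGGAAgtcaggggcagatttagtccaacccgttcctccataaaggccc
In Socs3 the match TTCTTAGAA begins 154 bases before the start. In Gfap, the gene of the glial intermediate filament, TTCCAGGAA spans the start and the wider TTCCCAAGAA begins 115 bases before it.

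By gene order in RefSeq, Osmr and Lifr neighbour each other on chromosome 15 with 0 protein-coding genes between them, and Lif lies next to Osm on chromosome 11, which also carries Stat3 and Socs3. None of the 10 members lies on chromosome 18, which carries Onecut2.

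The genes whose 6 arrays ran most like those of Osmr 1418674_at, by Pearson correlation over 11065 genes, were Ccn1, a matricellular protein gene (r = 0.989), Gldc of the glycine cleavage system (0.984), Ern1, a sensor of unfolded proteins (0.984), Tcirg1 (0.983) and Nab2 (0.977). For Stat3 1426587_a_at they were Syne2 (0.989), Ankrd29 (0.985), C1qa, a complement component of microglia (0.982), Lrrc2 (0.973) and Klf10 (0.970). With 6 points in 3 pairs these correlations describe the arrays and carry no test. Ccn1 differed by 0.91 and C1qa by 0.59 between genotypes.

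Markers of other cells differed between the genotypes to different degrees. Of 9 microglia and macrophage genes, all 9 had a higher mean in OC2-KO, 6 of them in all 3 pairs, and their summed intensity was 2608 to 3151 in OC2-WT and 3493 to 4371 in OC2-KO, without overlap. Aif1, P2ry12 and Itgam of this list did not pass the filter. Müller glia markers, Glul among them, were split, 3 of 5 higher and 0 in all 3 pairs, with summed intensities of 20082 to 30422 and 17710 to 35370. The 4 measured astrocyte markers had higher means, 2 of them in all 3 pairs, with sums of 923 to 1419 and 1354 to 2136. Of these, Gfap, also counted among the STAT3 targets, differed by 1.40, and S100b, Aldh1l1 and Pdgfra by 0.032, 0.24 and 0.28. The study's staining showed more GFAP in Müller glia processes of OC2-KO retinas. The 4 measured markers of neutrophils and lymphocytes all lay below the filter, with sums of 56.5 to 118 and 99.5 to 274. The mean was higher in OC2-KO for 5 of 6 endothelium genes, 4 of 6 of retinal pigment epithelium and 4 of 5 of lens (all genes, 48.8%). Of these, Pecam1, Cdh5 and Tek (endothelium) and Best1, Tyr and Mlana (pigment epithelium) did not pass the filter. Rpe65 and Ttr, the brightest pigment epithelium genes, were lower in all 3 pairs, with differences of -0.66 and -0.39. The pigment epithelium sum was 20839 to 74869 in OC2-WT and 12449 to 61232 in OC2-KO. Sums overlapped for each of these lists. The lens sum alone ran from 2038 to 29499 among the OC2-WT arrays and from 10862 to 27346 in OC2-KO. The part of any of these cells in the member values was not tested.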

How the data were processed

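Total RNA of whole adult retina was amplified and biotin-labelled by the authors and hybridised to 6 Affymetrix Mouse Genome arrays, 1 per sample and 3 per genotype. The deposited values are linear intensities, background-adjusted and scaled by the authors with MAS5 (version not given in the sources used here) to 500 as the trimmed mean of every array, so a shift shared by all genes cannot be seen. The number of arrays limits the precision, and nothing says that each array is its own animal, and p-values therefore reflect variation among arrays only.

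Groups and replicate numbers came from the sample titles. Probe sets were named from the platform annotation (34945 with 1 symbol, 932 with several, 9160 with none), of which 34741 matched a GRCm38.p6 gene table. After log2 transformation and removal of 64 control probe sets, those with a mean above 7 in either genotype were kept, 21176 in all. Genotype differences came from limma 3.58.1 in R 4.3.3 (lmFit, then eBayes) on all 6 arrays, two-sided, with Benjamini-Hochberg adjustment at 0.05 over all probe sets kept. The fit without the block was tested on simulated arrays drawn independently of each other, unlike the paired arrays here. After adjustment it called 4 of 50 probe sets with a log2 change of 1, 28 of 50 with 2 and 42 of 50 with 3. Of 20976 unchanged probe sets it called 4. A change of about 1 was thus seldom found in the simulation. Deviations from genotype means correlated at 0.576 to 0.590 within replicate numbers and at -0.429 to -0.135 between them, so the numbers pair the arrays, though no label says why.

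Every member probe set is reported. Of each other list, the up to 4 genes with the smallest p and Socs3 were named by rule, as were the 5 genes most like Osmr and Stat3. Other genes were named after their values were seen. Members and lists were chosen with earlier results of these data known. Protein sequences were not used here. Alternatives were other filters, scalings, variance models, weights, a floor at 6, the replicate block, both t-tests and leaving out arrays or pairs. For genes, averaging their probe sets was another.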

Additional observations from a re-analysis of the deposited data

How the results depend on the processing

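No member probe set passed adjustment under any alternative, and the 7 probe sets of Il6st, Osmr, Lifr and Stat3 above the filter had a difference above 0 under each alternative that tested them. Other filters, variance models, the block and the t-tests leave a difference unchanged. Only scalings, weights, the floor, left-out arrays and, for genes, averaging of their probe sets could turn its sign. The 12 member probe sets gave 0 with an unadjusted p under 0.05 in limma, 4 with the replicate block, with or without an intensity trend, 2 with the methods' t-test and with its unequal-variance form (both Il6st), and 1 with quantile normalization (Osmr) or array weights (Il6st). Leaving out arrays gave 0 to 1, with Osmr passing without OC2-WT replicate 2 or OC2-KO replicate 1 and Stat3 without OC2-KO replicate 3 or pair 3. With no filter, 16 of 25 member probe sets were above 0, and 9 to 11 of the 12 or 13 that then passed the filter when arrays were left out. The median member difference of 0.25 ran from 0.093 (without OC2-WT replicate 3, where 13 probe sets passed the filter) to 0.44 (without pair 2), was 0.14 without pair 3 (also 13 probe sets) and without OC2-KO replicate 1, and was 0.12 with array weights. The count without overlap was 2 with quantile normalization or median centring and ran from 3 to 6 when arrays were left out, at 5 without OC2-WT replicate 2 and 6 without pair 2, which fewer arrays favour.

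The 7 pathway genes higher at p under 0.05 became 12 with the replicate block, 11 with the block and a trend, and 3 with either t-test, and 4 to 9 when arrays were left out, 4 without pair 1 or pair 2. With no filter 2 were lower. Over all probe sets the 209 at p under 0.05 became 1144 with no filter, 127 with the filter at 8, 436 with array weights, 887 with the block and 779 with the block and a trend, and 209 to 560 when arrays were left out, with 560 without OC2-KO replicate 2. With the block and a trend 6 probe sets passed adjustment, no member among them but Edn2 and Cebpd (limma, adjusted p = 0.00267 and 0.0148), and Edn2 also passed when the probe sets of a gene were averaged (limma, adjusted p = 0.0230). Socs3 lost its unadjusted p under 0.05 with either t-test and without OC2-KO replicate 1, OC2-KO replicate 3 or pair 3. The share of higher calls was 67.0% as reported and 53.9% with array weights, 49.9% with the block and 46.4% without OC2-KO replicate 2.

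Signs near 0 turned. Median centring put Jak1 1433803_at at -0.0048, array weights put Jak1 1433804_at at 0.011, Ctf1 at -0.21 and Tyk2 at 0.11, and averaging the probe sets of each gene put Pias3 at -0.14. Leaving out arrays gave -0.43 to 0.33 for Jak1 1433805_at, -0.081 to 0.090 for 1433803_at, -0.30 to 0.093 for 1433804_at, -0.075 to 0.22 for Jak2 1421066_at, -0.11 to 0.74 for Jak2 1421065_at, -0.040 to 0.49 for Ebi3, -0.25 to 0.25 for Ctf1, -0.040 to 0.34 for Cntfr, -0.29 to 0.062 for Stat5b, -0.055 to 0.28 for Stat6 and -0.36 to 0.32 for Tyk2. Without a change of sign, arrays left out gave 0.48 to 1.37 for Ptpn6, 0.015 to 0.45 for Cish, 0.10 to 0.37 for Pias3, -0.73 to -0.073 for Stat5a, 0.037 to 0.45 for Lifr 1454984_at and 0.14 to 0.53 for Lifr 1425107_a_at. The causes were not tested. Dim probe sets, all ligands among them, limit what can be said.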
